A study of Homo sapiens with 6 samples.

Results

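Ferritin, iron transport and heme turnover were followed here through 10 genes in luciferases-expressing HepG2 cells with and without sedanolide. The genes were FTL and FTH1 (ferritin), TFRC, SLC40A1 and SLC48A1 (iron and heme transport), HMOX1, HMOX2, BLVRA and BLVRB (heme breakdown) and FECH (heme synthesis). They were taken by symbol and matched to the Ensembl identifiers of the counts table, and all 10 were found among its 61541 genes. All 10 also held enough counts to be tested, as did 14102 genes in all.

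Iron that enters a cell is used for heme and iron-sulfur clusters, stored in ferritin or exported. Ferritin is a shell built of heavy chains (FTH1), which oxidise ferrous iron, and light chains (FTL), which help the mineral core to form. Heme oxygenase splits heme into biliverdin, carbon monoxide and ferrous iron, and biliverdin reductase turns biliverdin into bilirubin. Several of these genes are known targets of NRF2, the transcription factor that binds antioxidant response elements (AREs). In the liver, hepatocytes are a major store of the body's iron.

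HepG2 is a human hepatoblastoma line. All 6 libraries came from a HepG2 derivative that carries an ARE-driven red luciferase (SLR3) and a green luciferase (ELuc) under a TK promoter on an artificial chromosome vector. The 3 sedanolide libraries were labelled as treated with sedanolide, a phthalide of celery, and the stated treatment was 100 μM for 24 h. The 3 control libraries were labelled only as control, with no vehicle given. The labels do not say that the replicates came from separate cultures, so p-values here measure the spread between these libraries, which may be technical. Because each library pools RNA from many cells, fewer cells of a kind and less RNA per cell cannot be told apart in any value below.

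Total expected counts lay between 16420258 and 26714853 per library. The first principal component of all genes held 56.1% of the variance and did not follow the treatment. Controls 1 and 2 and sedanolide 3 lay on one side of it, and control 3 and sedanolide 1 and 2 on the other. The share of mitochondrially encoded genes was 1.43% to 2.15% for controls 1 and 2 and sedanolide 3, and 4.23% to 5.22% for control 3 and sedanolide 1 and 2. For this reason each gene is also given within each side. The SLR3 reporter had a normalized level of 16.3 ± 1.73 CPM in control and 65.9 ± 5.67 CPM in sedanolide libraries (SD, n = 3; CPM are counts scaled to the size of the library). This was a log2 fold change of 2.02 (SE 0.14) with an adjusted p of 0.00324. The ELuc reporter had 18.6 ± 0.121 CPM in control and 10.4 ± 2.43 CPM in sedanolide libraries, each sedanolide library below each control, with a log2 fold change of −0.84 (SE 0.18) that was not called (adjusted p 0.131). The 9 hepatocyte and HepG2 markers, among them ALB and AFP, were all tested, with summed levels of 26992 to 42231 CPM in control and 19411 to 35342 CPM in sedanolide libraries. Singly, ALB, FGB and TTR were lower in every sedanolide library than in every control, an order that 9.66% of all genes tested showed. Their log2 fold changes were −0.43, −0.45 and −0.53. The other markers overlapped between the groups, with APOA1 at 0.06 and FOXA2 at 0.20, the rest negative, and none of the 9 was called. Of 6 erythroid markers, 4 were at 0 in every library and none passed 2 counts. Of 6 macrophage markers, CD163, MARCO and VSIG4 were at 0 in every library and only CD14 was tested, and their summed level was 3.08 to 4.02 CPM in control and 1.44 to 2.84 CPM in sedanolide libraries. The part of these levels in the results was not tested.

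Members of this group are also controlled through their mRNAs. Iron regulatory proteins bind an iron-responsive element, a short hairpin with a CAGUGN loop. In a 5′ UTR this binding blocks translation, and in the 3′ UTR of TFRC it protects the mRNA from decay. The elements are shown because a storage gene, an exporter and an importer of iron share them. The search took the letters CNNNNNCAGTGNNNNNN on the transcript strand, and required the 5 bases on either side of the loop to pair, with G and U allowed to pair. Only the Ensembl canonical coding transcript of each gene was searched, so elements with other letters or in other transcripts are not shown. Each match is printed as DNA in transcript direction, and the capitals mark the loop. The FTL site lies in the 5′ UTR at chr19:48965335-48965363 (GRCh38, plus strand). The SLC40A1 site lies in the 5′ UTR at chr2:189580661-189580689 (minus strand). The 4 TFRC sites lie in the 3′ UTR, on the minus strand, at chr3:196050979-196051007, chr3:196050575-196050603, chr3:196050510-196050538 and chr3:196050463-196050491, in the order of the transcript.
FTL 5′ UTR: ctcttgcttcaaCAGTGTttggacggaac
SLC40A1 5′ UTR: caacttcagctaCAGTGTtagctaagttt
TFRC 3′ UTR, site 1: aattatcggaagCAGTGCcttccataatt
TFRC 3′ UTR, site 2: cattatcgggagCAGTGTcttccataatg
TFRC 3′ UTR, site 3: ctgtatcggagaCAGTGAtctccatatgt
TFRC 3′ UTR, site 4: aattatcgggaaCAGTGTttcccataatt
The same search matched the 5′ UTR of 19 of 19701 coding transcripts (0.0964%) and the 3′ UTR of 121 (0.614%). HMOX2, FECH, BLVRA, BLVRB and SLC48A1 had no match, and FTH1 and HMOX1 are left out of this description, so nothing is said of their elements. A match describes the letters only, and RNA-seq measures neither protein binding nor translation.

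The comparison asked which iron and heme genes differed in level after 24 h of sedanolide. Both ferritin genes were higher in sedanolide-treated cells, FTL 1.94-fold and FTH1 1.81-fold, and they were the 2 of the 10 genes called higher. A gene was called at an adjusted p under 0.05 in edgeR's quasi-likelihood test (Benjamini-Hochberg over all genes tested) together with a fold change of at least 1.5. By this rule 0.362% of all genes tested were called higher and 0.312% lower. None of the 10 genes was called lower by edgeR or by limma-voom. In contrast DESeq2, as run here, called 1, SLC40A1, among the 1.4% of all genes it called lower. DESeq2 called the same 2 ferritin genes higher, where it called 0.922% of all genes. The study also used DESeq2, but it reported fewer genes in either direction than the run here called. The DESeq2 calls given here therefore do not stand for the results of the study. At an unadjusted p under 0.05, edgeR had 4 of the 10 higher (FTL, FTH1, FECH and BLVRB), against 5.35% of all genes, and 1 lower (SLC40A1), against 6.57%. The inducible heme oxygenase gene HMOX1 was among the 5 that did not reach it.

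FTL (ENSG00000087086) lies on chromosome 19 at 48965309 to 48966879 of GRCh38. Its level was 4416, 3998 and 4002 CPM in controls 1, 2 and 3, and 7407, 8202 and 8516 CPM in sedanolide 1, 2 and 3. Every sedanolide library was above every control library, and the lowest sedanolide library was well clear of the highest control. The log2 fold change was 0.96 (SE 0.12, 95% interval 0.67 to 1.25), 1.94-fold, with an adjusted p of 0.028. It was 1.02 within the side that holds sedanolide 3 and 0.96 within the side that holds control 3. The counts behind these levels were 70817 to 94395 in control and 137774 to 214797 in sedanolide libraries.

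FTH1 (ENSG00000167996) lies on chromosome 11 at 61959718 to 61967634, on the minus strand. It was measured at 2383, 1981 and 2232 CPM in controls 1, 2 and 3, and at 3816, 4111 and 4002 CPM in sedanolide 1, 2 and 3. The groups did not overlap, and the 3 sedanolide libraries lay closer together, relative to their mean, than the controls. Its log2 fold change was 0.86 (SE 0.12, 95% interval 0.56 to 1.15), 1.81-fold, with an adjusted p of 0.0359. Within the sides it was 0.88 and 0.83. FTH1 shares 1267 exon bases with BEST1 on the opposite strand, and BEST1 had 0.183% of the counts of FTH1.

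**Figure D1:**
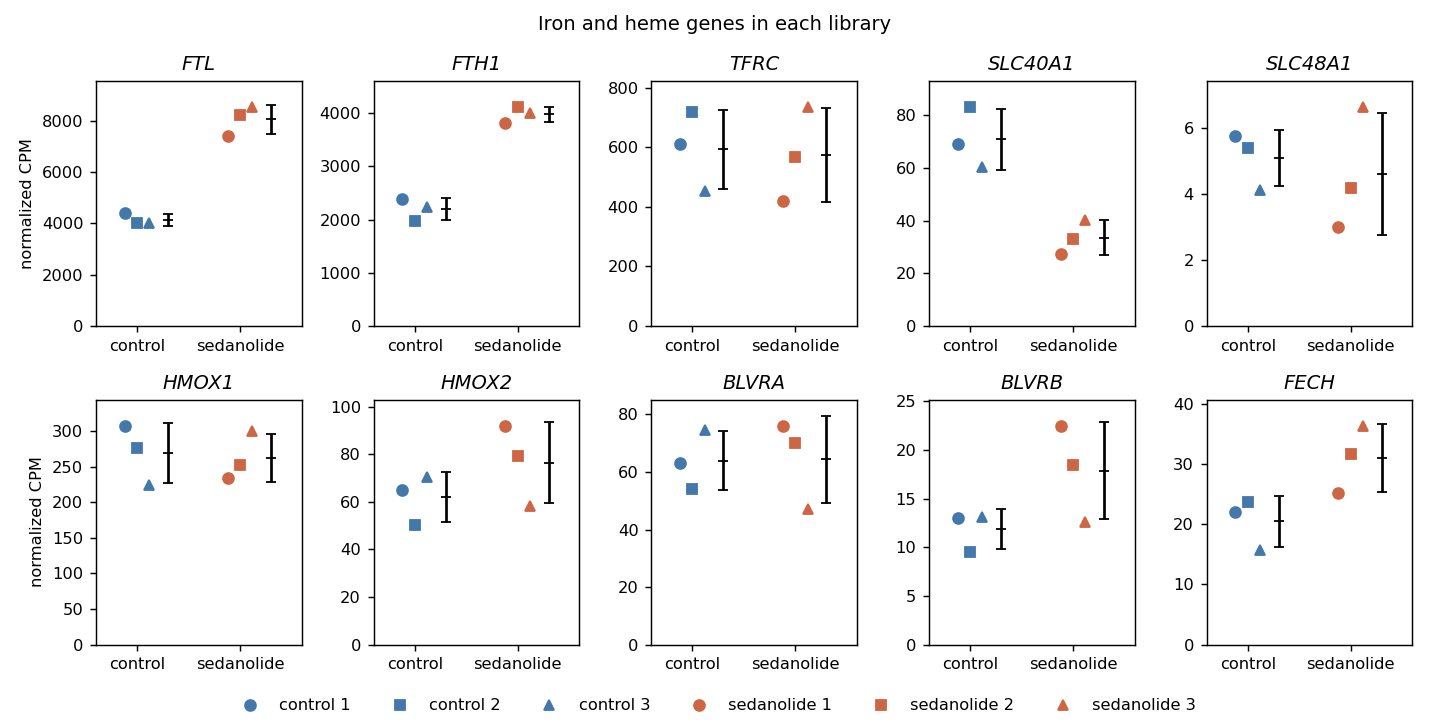
Normalized CPM of the 10 genes (vertical axis from 0, a scale of its own for each gene) in each library, with blue for control and red for sedanolide, marker shapes for replicates 1 to 3, and black bars for the mean and SD (n = 3). FTL and FTH1 in sedanolide libraries lie above every control, SLC40A1 lies below every control, and TFRC and HMOX1 are spread over the same range in both groups.

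The ferritin calls changed when a library was left out. With 1 library left out at a time, the FTH1 call was lost in all 6 fits (adjusted p 0.0506 to 0.299), although its log2 fold change stayed between 0.79 and 0.91. The FTL call was lost in 5 of the 6 fits (adjusted p 0.0927 to 0.227) and held without sedanolide 3 (adjusted p 0.039), with log2 fold changes of 0.92 to 1.01. Among all genes tested, 51 were called higher in the reported fit. The fits without controls 1, 2 and 3 called 0, 6 and 22 higher. Those without sedanolide 1, 2 and 3 called 11, 0 and 66 higher. Over all 17 alternative fits, FTL was called in 9 and FTH1 in 8, and both were higher in sedanolide cells in all 17. On the deposited log2 TPM, a unit scaled by transcript length, limma gave 0.85 for FTL (adjusted p 0.0776) and 0.74 for FTH1 (adjusted p 0.161).

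FTL and FTH1 were summed to follow the ferritin message as a whole. The sum was 6799, 5979 and 6234 CPM in the control libraries and 11223, 12313 and 12518 CPM in the sedanolide libraries. All sedanolide libraries were above all controls, with means of 6337 ± 420 and 12018 ± 696 CPM (SD, n = 3) and a log2 difference of 0.92, which is 1.90-fold. The exact permutation test, two-sided, gave p = 0.1 (0.3 after Benjamini-Hochberg adjustment over 3 such tests), the smallest value that 3 against 3 libraries allow.

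Ferritin took 0.615% to 0.683% of all counts in control libraries and 1.10% to 1.26% in sedanolide libraries. FTL ranked 11th, 11th and 13th among all genes by counts in the controls, and 6th, 6th and 5th after sedanolide. FTH1 moved from places 26, 31 and 29 to places 16, 13 and 10. The many processed ferritin pseudogenes could take reads from their parents. In the deposited counts the 25 FTH1 pseudogenes together had 0.227% to 0.284% of the counts of FTH1. The 16 FTL pseudogenes had 0.0480% to 0.0658% of those of FTL. These shares come from the same counting, and whether reads were placed on the wrong gene was not tested. Rows of this size could hardly change the sum, and with them added its log2 difference was again 0.92.

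The ratio of heavy to light chain mRNA, taken per length from TPM, was 0.695, 0.575 and 0.629 in controls 1, 2 and 3. In sedanolide 1, 2 and 3 it was 0.561, 0.602 and 0.593. The groups overlapped, and the log2 difference of −0.11 had p = 0.3 in the two-sided exact permutation test (adjusted p 0.4). FTL and FTH1 had a Pearson r of 0.99 between their log2 CPM over the 6 libraries, which is given as a description of points that share a treatment and libraries.

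SLC40A1 encodes ferroportin, the known exporter of ferrous iron from cells, and lies on chromosome 2 at 189560590 to 189583758 on the minus strand (ENSG00000138449). Its level was 68.9, 83.0 and 60.4 CPM in controls 1, 2 and 3. In sedanolide 1, 2 and 3 it was 27.2, 32.9 and 40.4 CPM. Every sedanolide library was below every control library, the only one of the 10 genes with this order, which 9.66% of all genes tested showed. The log2 fold change was −1.08 (SE 0.19, 95% interval −1.52 to −0.64), 0.473-fold, the largest in size among the 10. Its adjusted p was 0.0713, so it was not called. Within the sides its log2 fold change was −0.90 and −1.01.

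SLC40A1 stood close to the threshold and the call changed with the method. It was called lower in 4 of 16 alternative fits. These were DESeq2 (adjusted p 0.000128), edgeR on all genes with at least 1 count (0.0119), edgeR with the side of the first component as a term (log2 fold change −0.96, adjusted p 0.00282) and edgeR without sedanolide 3 (0.0314). The fit with the side as a term called 1.63% of all genes lower. The side was drawn from these same counts, so the adjusted p of that fit is a description. The log2 fold change of SLC40A1 lay between −1.26 and −0.95 in all 16.

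**Figure D2:**
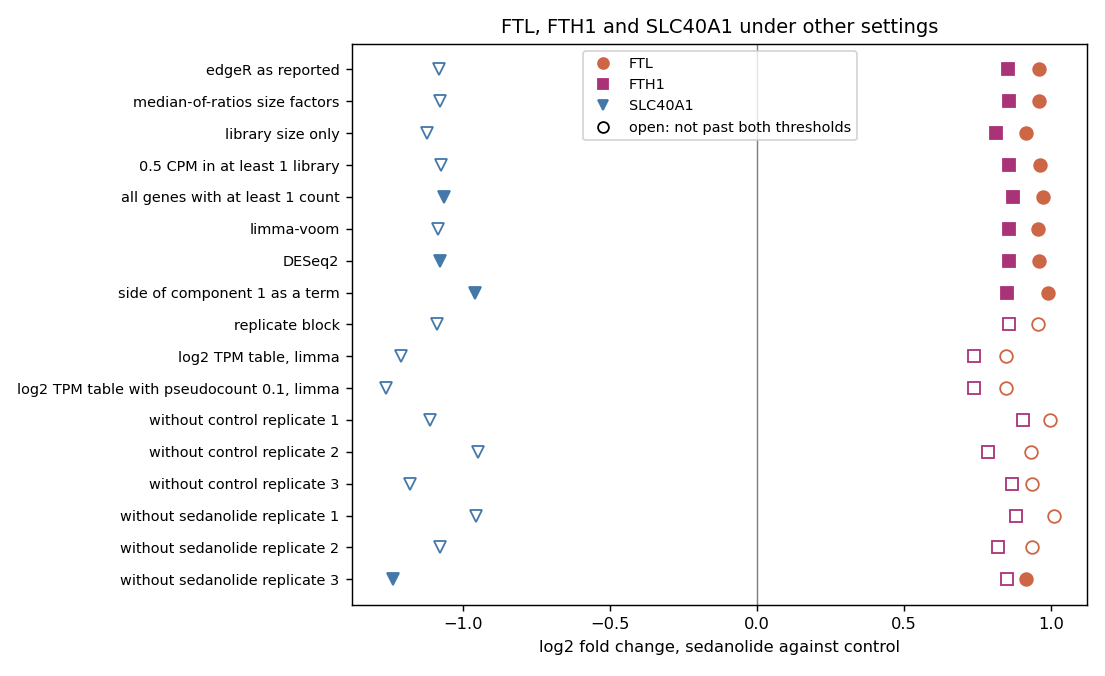
Log2 fold change (horizontal axis, sedanolide against control) of FTL (circles), FTH1 (squares) and SLC40A1 (triangles) in the reported fit and in alternative fits (one row each), filled where the gene passed both thresholds and open where it did not. The ferritin genes stay between 0.74 and 1.01 and SLC40A1 between −1.26 and −0.95, while the filled symbols come and go with the fit.

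TFRC, the transferrin receptor that takes up iron-loaded transferrin, lies on chromosome 3 at 196012511 to 196082153 on the minus strand (ENSG00000072274). It had 610, 717 and 452 CPM in controls 1, 2 and 3, and 421, 569 and 735 CPM in sedanolide 1, 2 and 3. The groups overlapped over nearly their whole range, and the 3 highest libraries were controls 1 and 2 and sedanolide 3, the first side of the component. Sedanolide cells differed from control by a log2 fold change of −0.05 (SE 0.25, 95% interval −0.63 to 0.53, adjusted p 0.955). Within the sides it was 0.15 and 0.11, opposite in sign. A level 1.5-fold lower lies inside the 95% interval, and the sign varied between fits, from −0.26 to 0.14.

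SLC48A1 encodes HRG1, a heme importer of endosomes and lysosomes, on chromosome 12 at 47753916 to 47782751 (ENSG00000211584). It was the lowest of the 10 genes, with 95, 127 and 73 counts in controls 1, 2 and 3 and 56, 108 and 167 counts in sedanolide 1, 2 and 3. In CPM these were 5.76, 5.38 and 4.13 in the controls and 3.01, 4.17 and 6.62 with sedanolide. The sedanolide libraries held both the lowest and the highest level of the 6. For SLC48A1 the log2 fold change was −0.14 (SE 0.30, 95% interval −0.84 to 0.57, adjusted p 0.886), and a level 1.5-fold lower lies inside this interval. It was 0.25 within the side with sedanolide 3 and −0.21 within the side with control 3. Its exons share 30 bases with HDAC7 on the opposite strand, which had 314% of the counts of SLC48A1, and the strand setting of the counting was not given in the sources used here.

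HMOX1, the inducible heme oxygenase and a well-known ARE target, lies on chromosome 22 at 35380361 to 35394214 (ENSG00000100292). It was measured at 307, 276 and 224 CPM in controls 1, 2 and 3, and at 234, 252 and 299 CPM in sedanolide 1, 2 and 3. The groups overlapped, the highest and the lowest library both being controls. The log2 fold change was −0.04 (SE 0.16, 95% interval −0.42 to 0.34, adjusted p 0.943), and the interval leaves out a difference of 1.5-fold in either direction. Within the sides it was 0.04 and 0.12, and across the fits it ran from −0.15 to 0.08 without a call in any.

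HMOX2 encodes the constitutive heme oxygenase, on chromosome 16 at 4474690 to 4510347 (ENSG00000103415). It had 65.2, 50.4 and 70.4 CPM in controls 1, 2 and 3, and 92.0, 79.4 and 58.2 CPM in sedanolide 1, 2 and 3. Sedanolide 1 and 2 were above every control, whereas sedanolide 3 lay between controls 1 and 2. With these libraries the log2 fold change was 0.30 (SE 0.20, 95% interval −0.18 to 0.79, adjusted p 0.609), and it was 0.02 within the side with sedanolide 3 and 0.28 within the other. HMOX2 shares 103 exon bases with NMRAL1 on the opposite strand, which had 30.3% of its counts.

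The inducible enzyme stayed the more abundant heme oxygenase message in every library. The ratio of HMOX1 to HMOX2 in TPM was 4.22, 5.11 and 3.03 in controls 1, 2 and 3 and 2.44, 2.93 and 4.63 in sedanolide 1, 2 and 3. The groups overlapped, and the log2 difference of −0.32 had p = 0.4 in the two-sided exact permutation test (adjusted p 0.4).

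BLVRA, the biliverdin reductase of adult tissues, lies on chromosome 7 at 43758680 to 43807342 (ENSG00000106605). It had 63.0, 54.2 and 74.5 CPM in controls 1, 2 and 3, and 76.1, 69.9 and 47.2 CPM in sedanolide 1, 2 and 3. The lowest library was sedanolide 3 and the highest sedanolide 1, with the controls between them. Between the groups the log2 fold change was 0.01 (SE 0.21, 95% interval −0.48 to 0.50, adjusted p 0.986). It was −0.31 and −0.03 within the sides, and its sign varied between fits, from −0.17 to 0.19.

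BLVRB, a flavin reductase that also acts on the biliverdin of the fetus, lies on chromosome 19 at 40447765 to 40465764 on the minus strand (ENSG00000090013). Its level was 13.0, 9.49 and 13.1 CPM in controls 1, 2 and 3, and 22.5, 18.5 and 12.6 CPM in sedanolide 1, 2 and 3. Sedanolide 1 and 2 were above all controls, and sedanolide 3 was below controls 1 and 3. This gave a log2 fold change of 0.59 (SE 0.24, 95% interval 0.02 to 1.16, adjusted p 0.396), with 0.18 within the side of sedanolide 3 and 0.64 within the side of control 3. No fit called it.

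FECH encodes ferrochelatase, the last enzyme of heme synthesis, which inserts ferrous iron into protoporphyrin, and lies on chromosome 18 at 57544377 to 57586732 on the minus strand (ENSG00000066926). It had 22.1, 23.8 and 15.7 CPM in controls 1, 2 and 3, and 25.2, 31.7 and 36.4 CPM in sedanolide 1, 2 and 3. All sedanolide libraries were above all controls, although sedanolide 1 was only slightly above control 2. The log2 fold change was 0.60 (SE 0.20, 95% interval 0.12 to 1.08), 1.52-fold, with an adjusted p of 0.311, so FECH was not called. Within the sides it was 0.67 and 0.84. With the side of the first component as a term it was 0.76 with an adjusted p of 0.0118, the only fit that called it. That fit called 1.07% of all genes higher, and its side was drawn from these same counts.

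**Figure D3:**
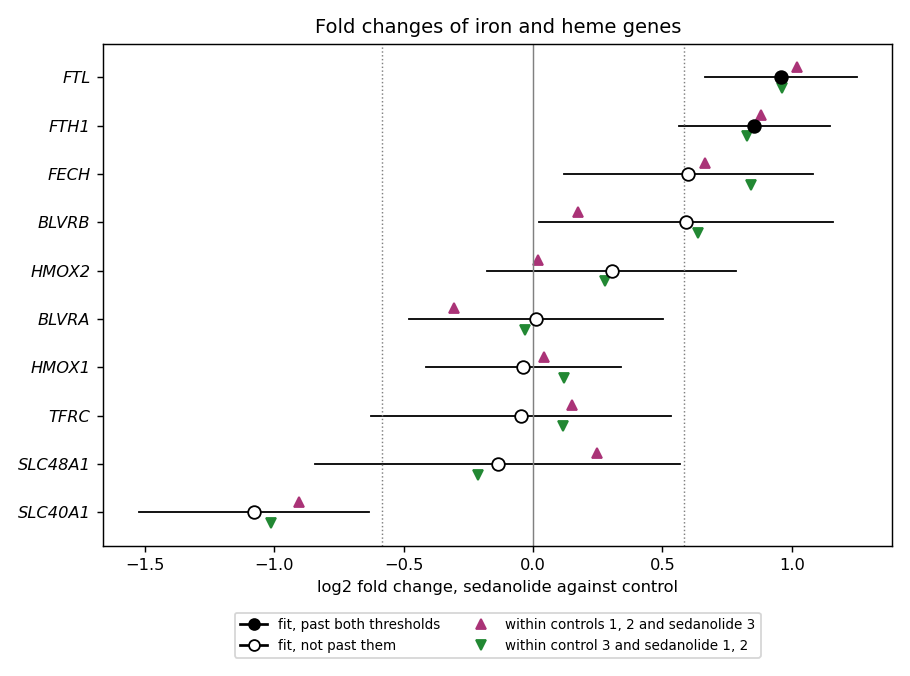
Log2 fold change of the 10 genes (circles, horizontal axis) with 95% intervals (lines), filled where the gene passed both thresholds, and the log2 fold change within each side of the first principal component (triangles); dotted lines mark 1.5-fold. The intervals of FTL, FTH1, FECH and BLVRB lie wholly above 0 and that of SLC40A1 wholly below it, although only FTL and FTH1 were called. Those of HMOX2, BLVRA, HMOX1, TFRC and SLC48A1 cross 0.

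Over the 10 genes the median log2 fold change was 0.16, beside 0.01 over all genes tested. FTL, FTH1 and FECH were higher in every sedanolide library than in every control, 3 of 10 genes, where 8.69% of all genes showed this order. A further 6 of the 10 separated the libraries by the side of the first component and not by treatment, an order found in 44.1% of all genes. HMOX1, SLC48A1 and TFRC were higher in all of controls 1 and 2 and sedanolide 3, and HMOX2, BLVRA and BLVRB were higher in all of control 3 and sedanolide 1 and 2. The component was computed from all genes, these included, so that count is a description. The share of mitochondrially encoded counts moved with the same split, and its part in these 6 genes was not tested.

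Levels per transcript length were compared in TPM. FTL was the most abundant of the 10, with 8901 ± 720 TPM in control and 16104 ± 2427 TPM in sedanolide cells (SD, n = 3), followed by FTH1 with 5637 ± 750 and 9454 ± 1654 TPM. HMOX1 came next with 290.8 ± 55.8 and 261.9 ± 55.2 TPM, followed by TFRC with 204.7 ± 58.0 and 184.4 ± 65.1 TPM. The ranges of HMOX1 and TFRC overlapped in both groups, although HMOX1 was above TFRC within every library. In controls BLVRA (115.8 ± 11.7 TPM), HMOX2 (71.6 ± 7.48 TPM) and then SLC40A1 (35.1 ± 7.94 TPM) and BLVRB (28.0 ± 2.92 TPM) followed, the last pair with overlapping libraries. FECH (17.0 ± 4.37 TPM) and SLC48A1 (2.98 ± 0.724 TPM) closed the order.

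After sedanolide the middle of this order was different. SLC40A1 had 14.7 ± 4.01 TPM, and all of its sedanolide libraries (11.1 to 19.0 TPM) lay below those of BLVRB (30.6 to 46.7 TPM) and of FECH (21.3 to 32.9 TPM). BLVRB and FECH overlapped with each other, as did BLVRA (82.8 to 118.7 TPM) and HMOX2 (70.0 to 89.5 TPM). Within each sedanolide library, however, BLVRA was above HMOX2. SLC48A1 was again the lowest, with 2.51 ± 1.06 TPM.

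The genes whose log2 CPM followed FTH1 most closely over the 6 libraries were BCAR3 (Pearson r 0.996), CPLX2 (0.995) and DUSP13 (0.995). For FTL they were MTCL1 (0.996), TUBA1B-AS1 (0.995) and FTLP3 (0.994), the last a ferritin light chain pseudogene that shares sequence with FTL. An r above 0.95 was held by 143 genes with FTH1 and 133 with FTL, of 14102 genes tested, over libraries that share the treatment.

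A further 80 genes of iron and heme handling, in 10 lists, were counted in the same fit, and 72 of them held enough counts to be tested. None was called in either direction by edgeR or limma-voom, and DESeq2 called 1 higher (ABCB6) and none lower. At an unadjusted p under 0.05 edgeR had 7 of the 72 higher, against 5.35% of all genes tested, and 2 lower, against 6.57%. Their median log2 fold change was 0.05. In 14 of them every sedanolide library was above every control, and in 4 every sedanolide library was below, orders that 8.69% and 9.66% of all genes tested showed.

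Of the 4 tested genes of ferritin delivery and turnover, none was called. NCOA4, the receptor that carries ferritin to the lysosome, had a log2 fold change of −0.06, and PCBP1, an iron chaperone that loads ferritin, 0.31. The lowest of this list was HERC2, a ubiquitin ligase of NCOA4, at −0.18. In the list of iron uptake and reduction, with 9 tested and none called, values ran from −0.52 for SLC39A14, a zinc and iron importer of hepatocytes (adjusted p 0.440), to 0.48 for CYBRD1, a ferric reductase.

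None of the 7 tested genes of iron export and its systemic control was called. All 7 had negative log2 fold changes, as did 6949 of all 14104 rows tested, and of the 7 only HJV had groups that did not overlap. The lowest was HJV, the hemojuvelin co-receptor that raises hepcidin, at −0.74 (adjusted p 0.390) with 1.99 CPM in control and 1.20 CPM in sedanolide cells, and the least negative was SMAD7, an inhibitor of that pathway, at −0.02. The mRNAs of the iron regulatory proteins, which bind the elements printed above, were at 0.05 for ACO1 and 0.09 for IREB2, and FBXL5, which marks IREB2 protein for decay when iron is plentiful, was at 0.26. None of these 3 was called. Of 3 other tested mRNAs known to carry an iron-responsive element none was called, and the lowest was CDC14A at −0.09.

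None of the 17 genes of mitochondrial iron and iron-sulfur clusters was called, with values from −0.23 for ISCA2 to 0.39 for LYRM4, both part of cluster assembly. Of 11 tested genes of heme synthesis none was called either. The highest of all 72 was ABCB6, a porphyrin transporter, with 82.4 ± 19.9 CPM in control and 182.2 ± 58.3 CPM after sedanolide (SD, n = 3). The difference was 1.14 on the log2 scale, with an adjusted p of 0.182 in edgeR. ABCB6 was called in 3 of 16 alternative fits. These were DESeq2 (adjusted p 0.0064), edgeR with the side of the first component as a term (0.0186) and edgeR without sedanolide 3 (0.0371). Over all 16 its adjusted p reached 0.793, with the replicate number as a term. ALAD, which joins aminolevulinate into porphobilinogen, had 44.7 ± 3.37 and 30.2 ± 2.95 CPM, a log2 fold change of −0.57 with an adjusted p of 0.133.

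Of 9 tested genes of heme transport and scavenging none was called, and values ran from −0.60 for SLC46A1, a folate transporter also described as a heme carrier, to 0.78 for ABCG2, which exports porphyrins. ABCG2 was near the floor, with 6, 8 and 6 counts in controls 1, 2 and 3 and 10, 20 and 12 in sedanolide 1, 2 and 3. Neither of the 2 tested genes of heme breakdown partners and bilirubin disposal was called. ABCC2, the canalicular exporter of conjugated bilirubin, had 326.3 ± 53.1 and 498.3 ± 94.4 CPM, a log2 fold change of 0.61 with an adjusted p of 0.255. It was called in 1 of 16 alternative fits, that with the side as a term (0.73, adjusted p 0.0075). Over all 16 its adjusted p reached 0.907. Among 7 tested genes of ARE control none was called. KEAP1, the adaptor that marks NRF2 for decay, was highest at 0.65 (adjusted p 0.278, 80.5 ± 12.2 and 126.4 ± 30.6 CPM), and NFE2L1 lowest at −0.38. The mRNA of NRF2 itself (NFE2L2) was at −0.09, and that of BACH1, a repressor of HMOX1, at 0.20.

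**Figure D4:**
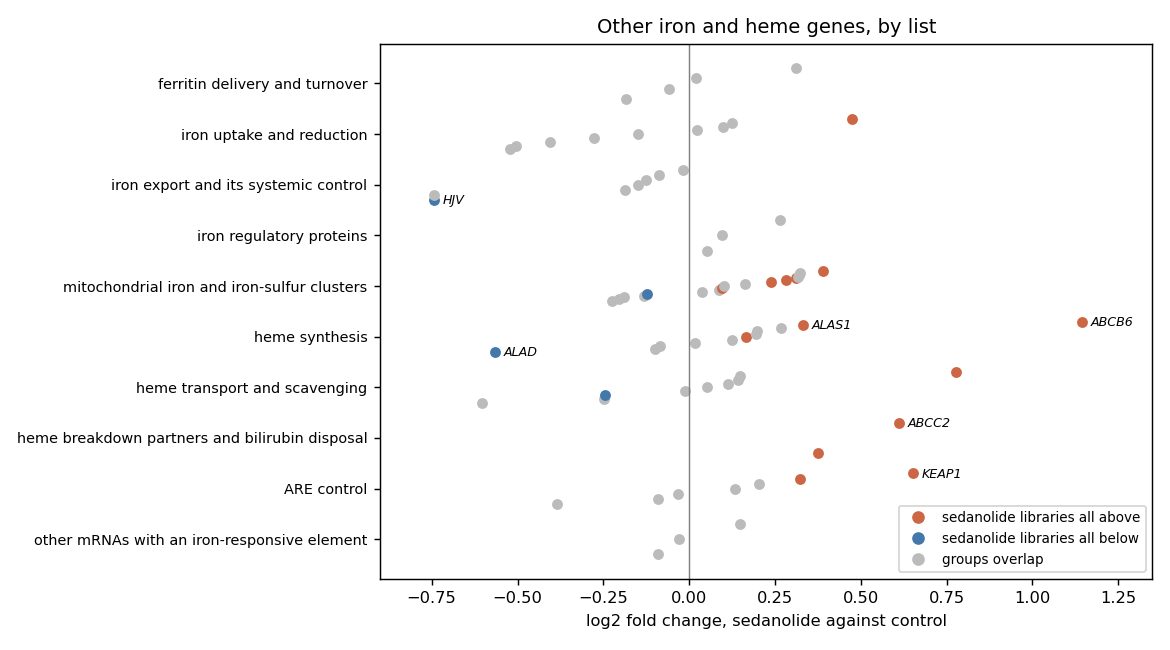
Log2 fold change (horizontal axis) of the 72 tested genes of the 10 wider iron and heme lists (one band each), with red where all sedanolide libraries were above all controls, blue where all were below and grey where the groups overlapped. ABCB6 stands farthest to the right at 1.14, and no gene in the plot passed both thresholds.

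Promoters are shown for FTL, the ferritin gene with the larger log2 fold change, and for SLC40A1, the gene farthest in the other direction. RefSeq windows (GRCh38.p14) were at hand for 8 of the 10 genes, and the 250 bases upstream of each start were searched on both strands for the ARE core TGACNNNGC, the GC box GGGCGG and the TATA box TATAAA. The FTL window is chr19:48965059-48965308 (plus strand) and the SLC40A1 window chr2:189580787-189581036 (minus strand). Capitals mark GC boxes on either strand.
FTL promoter: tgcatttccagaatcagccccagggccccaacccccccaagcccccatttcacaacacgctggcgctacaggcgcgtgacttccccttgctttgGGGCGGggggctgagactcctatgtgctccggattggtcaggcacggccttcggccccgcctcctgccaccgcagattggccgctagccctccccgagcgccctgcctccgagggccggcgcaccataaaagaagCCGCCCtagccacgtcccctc
SLC40A1 promoter: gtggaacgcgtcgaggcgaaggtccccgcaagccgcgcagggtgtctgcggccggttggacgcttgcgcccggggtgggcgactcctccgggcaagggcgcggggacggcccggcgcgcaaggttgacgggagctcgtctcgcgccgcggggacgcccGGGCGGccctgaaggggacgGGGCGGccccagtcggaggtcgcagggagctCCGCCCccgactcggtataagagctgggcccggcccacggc
FTL held 2 GC boxes and SLC40A1 held 3, and neither held the ARE core or the TATA box in these letters. Among all 35116 windows, 42.6% held a GC box, 10.9% the ARE core and 10.7% the TATA box. Of the 8 genes with a window, FECH alone held the ARE core, 38 bases upstream on the minus strand. FTH1 and HMOX1 had no window, so nothing is said of their promoters. Elements farther from the start lie outside these windows, and no binding was measured here.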

How the data were processed

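RNA-seq was available for 3 control and 3 sedanolide libraries, grouped by their titles. Per the labels and the methods of the study, the authors used FastQC for read quality, Trimmomatic for adaptors and low-quality reads, STAR for alignment against GRCh38 and RSEM for gene quantities, whose versions are not given in the sources used here. The deposited counts are RSEM expected counts, which were rounded to whole numbers here. The deposited log2 table holds log2(TPM + 1) for 11006 genes, which was taken back to TPM here. Of the 61541 identifiers, 61369 matched GENCODE release 44, the source of symbols and positions. The 10 genes, the wider lists and the tests were chosen with earlier results of these data known.

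The counts were fitted in R 4.3.3 with edgeR 4.0.16 (filterByExpr, TMM normalization, quasi-likelihood test, condition only). The fit ran over 14104 rows, that is 14102 genes and 2 reporters, and p-values were adjusted over all of them by the Benjamini-Hochberg method. Standard errors were taken from the log2 fold change and its F statistic, and 95% intervals from the t distribution with the degrees of freedom of the fit. CPM were taken after TMM scaling. Sums and ratios were tested by exact permutation. Alternatives were DESeq2 1.42.0, limma-voom and limma 3.58.1, other scalings, filters and thresholds, the side of the first component or the replicate number as a term, and leaving out each library. Named were all 10 genes, the extremes and called genes of each wider list, 6 regulators, and the 3 genes most like FTL and FTH1; not every gene this rule names is reported here. The main fit was tested on simulated data that lacked the split of the first component, so this does not show how the fits handle that split. Libraries of a group differed by more than sampling noise, so none was taken as a copy of another and all 6 were kept. The thresholds of adjusted p 0.05 and 1.5-fold follow the study. The study applied them with DESeq2 through the web application iDEP, whereas edgeR was the main test here and DESeq2 an alternative. Depth was 16420258 to 26714853 counts per library.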

Additional observations from a re-analysis of the deposited data

How the results depend on the processing

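The 2 ferritin calls held with DESeq2, limma-voom, the other scalings and both other filters on low counts. The number of the 10 genes called higher was 0 with the replicate block, 0 with limma on the log2 TPM table, 0 there with a pseudocount of 0.1, 0 at an adjusted p of 0.01, 3 with the side of the first component as a term, and 0 to 1 with 1 library left out. The number called lower, 0 in the reported fit, was 1 with DESeq2, 1 with all genes of at least 1 count, 1 with the side as a term and 0 to 1 with 1 library left out. In the wider lists the number called higher was 1 with DESeq2, 2 with the side as a term (ABCB6 and ABCC2) and 0 to 1 with 1 library left out. None of the genes called here or in an alternative fit, among the 10 and the wider lists, changed direction in another fit. The side was drawn from these same counts, so calls with it as a term are a description. The causes of the shifts in calls were not tested. Over all genes tested, calls numbered 51 higher and 44 lower as reported, 130 and 198 with DESeq2, 151 and 230 with the side as a term, 33 and 28 on the log2 TPM table, 79 and 79 with all genes of at least 1 count, and 0 without control 1 or without sedanolide 2.

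Deviations of libraries with the same replicate number had correlations of −0.13, −0.30 and −0.73, and the highest was 0.68, for control 2 with sedanolide 3. The correlations were positive within a side of the first component and negative across the sides. They therefore cannot show whether libraries with the same number were prepared together. With the replicate block no gene was called (772 had an unadjusted p under 0.05), and the adjusted p was 0.617 for FTH1 and 0.573 for FTL. With 3 libraries a group, the smallest p of an exact permutation test is 0.1, and SLC48A1, with 56 to 167 counts, is the least precise of the 10.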
